A study of Rattus norvegicus with 8 samples.

Results

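Trigeminal nerve of the congenic rat strain BDIX.BDIV-Mss4d, called Mss4d below, was compared with nerve of BDIV, the strain from which its chromosome segment was taken. The comparison comprised the 2 Mss4d and the 2 BDIV arrays of the non-normalized signal table, 4 of 8 arrays in all, with the pool pair (female or male) as a term. A probe was tested if its detection p was under 0.05 on both arrays of at least 1 of these strains, which left 12120 of 22523 probes. Each array measured total RNA of 1 pool of untreated nerves from rats 85 days old, 1 female and 1 male pool per strain, on an Illumina RatRef-12 bead array. Mss4d carries a BDIV segment on the BDIX background, so it differs from BDIV wherever BDIX and BDIV differ outside that segment. BDIX and a further congenic strain, BDIX.BDIV-Mss4a (Mss4a below), gave the other 4 arrays. These were normalized together with the Mss4d and BDIV arrays, and otherwise served to estimate the spread and to show a level. All groups were untreated and of the same age. The number of animals per pool and the position of the segment are not given in the sources used here.

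The trigeminal nerve carries the axons of sensory neurons of the face, and its ganglion holds their cell bodies. Schwann cells wrap these axons in myelin, a step driven by the axonal ligand neuregulin 1 and its receptors ErbB2 and ErbB3 on the Schwann cell. Fibroblasts, perineurial cells and vessels form the sheaths. Malignant Schwann cell tumours arise in this nerve in BDIX rats given ethylnitrosourea, to which BDIV rats resist, and the strain name Mss4d refers to a mapped locus for this trait.

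Levels below are quantile normalized log2 signals, and differences are Mss4d minus BDIV on the log2 scale ± the standard error that limma gave (n = 2 arrays per strain). A gene is said to have risen or fallen when its Benjamini-Hochberg adjusted p, two-sided over all tested probes, was under 0.05. Of the 12120 probes 4122 passed (34.0%), 2061 higher (17.0%) and 2061 lower (17.0%) in Mss4d. With arrays scaled to their medians instead, 60.5% of 5091 passing probes were higher, against 50.0% here, and the median of all probes shifted by 0.13. Over 8578 genes, each taken by its brightest probe, 17.8% rose and 16.3% fell, with a median of 0.04. These shares are the background for every list below. More than 2-fold and the same way in both pairs were 684 probes higher (5.64%) and 971 lower (8.01%). Both Mss4d arrays lay above both BDIV arrays for 40.0% of probes and below them for 39.8%, so arrays that do not overlap were the rule in this comparison.

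The pools were not equally alike. The BDIV arrays correlated with r = 0.996 over the tested probes, the Mss4d arrays with 0.979, and arrays of different strain with 0.912 to 0.946, the lowest for the Mss4d male. Male minus female had an SD of 0.219 in BDIV and 0.496 in Mss4d. The median bead signal was 145.4 and 141.0 in Mss4d against 95.58 and 95.75 in BDIV, and the part of hybridisation, for which the labels give no batch, was not tested. Between 51.01% and 53.48% of probes were detected on these 4 arrays. No label says that the pools of a strain were separate replicates beyond sex. The p-values measure the spread that strain and sex leave over the pools of all 4 strains. BDIX and Mss4a, with an SD of 0.518 and 0.472 for male minus female, enter that spread. Fewer probes passed when 1 array was left out, 654 when it was the BDIV male, 754 the BDIV female, 1314 the Mss4d male and 2666 the Mss4d female array.

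The male Mss4d array stood apart from the other arrays by transcripts of thyroid and epithelium, which are therefore described before the nerve genes and apart from them. Thyroglobulin (Tg), the protein scaffold of thyroid hormone, was at 12.20 (female pool) and 14.87 (male pool) in Mss4d, the order used throughout, against 5.05 and 5.09 in BDIV. It was not detected on any of the 6 arrays of BDIV, BDIX and Mss4a, and was at least 326.3-fold higher in Mss4d than in BDIV (limma adjusted p = 0.00128). Calca, which encodes calcitonin in thyroid C cells and the neuropeptide CGRP in sensory neurons, was at 8.92 and 14.83 in Mss4d against 4.69 and 4.63 in BDIV. It too was detected only on the Mss4d arrays, at least 103.3-fold above BDIV (limma adjusted p = 0.00926). Both genes were present in the female pool and brighter in the male pool.

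The other thyroid genes were mostly a matter of the male pool. Dio1, the deiodinase that activates thyroid hormone, was at 7.81 and 13.32 in Mss4d against 5.19 and 4.81 in BDIV (5.57 ± 1.34). The iodide transporter gene Slc5a5 was at 7.20 and 12.54 against 6.02 and 5.47 (4.12 ± 1.25). Both rose. The thyrotropin receptor gene Tshr, at 5.56 and 9.62 against 4.81 and 4.97, and the homeobox gene Hhex, at 7.90 and 10.47 against 7.56 and 7.21, did not pass, nor did Duox2, the oxidase that makes peroxide for iodination (5.58 and 9.09 against 6.37 and 6.66). The transcription factor genes Foxe1, Pax8 and Nkx2-1 and the genes Cdh16, Iyd and Slc26a7 were detected in the male pool alone and at background in BDIV, so they were not tested. Foxe1 stood at 10.60 in that pool and 4.86 in the female pool, and Nkx2-1 at 6.42 and 4.63. Slc26a4, Calcr and Tff3 were not detected on any of the 8 arrays, and Kcne2 was not detected in Mss4d or BDIV. The potassium channel gene Kcnq1 rose evenly in both pools (6.48 and 6.80 against 5.23 and 5.69). Unlike Tg and Calca it was also detected in BDIX, at a like level (6.58 and 6.55). The chaperone gene Clu fell (12.58 and 12.85 against 13.64 and 13.60).

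Of 19 thyroid list genes with a probe, 14 were more than 2-fold higher in the male pair and 5 in the female pair. Of the 9 that were tested 5 rose and 1 fell. Kcnq1 is counted among the 5 of the female pair and among the rises. The count of rises was 8 without the Mss4d female array, 3 without the Mss4d male array, 1 without either BDIV array, 3 without background correction or filter, and 0 of those detected on all 4 arrays at p under 0.01. The fall of Clu was lost without any 1 of the 4 arrays. Summed over the list, the normalized signal was 12400 in the Mss4d female and 88710 in the Mss4d male array, against 13570 and 13150 in BDIV, where Clu made up most of it.

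**Figure D1:**
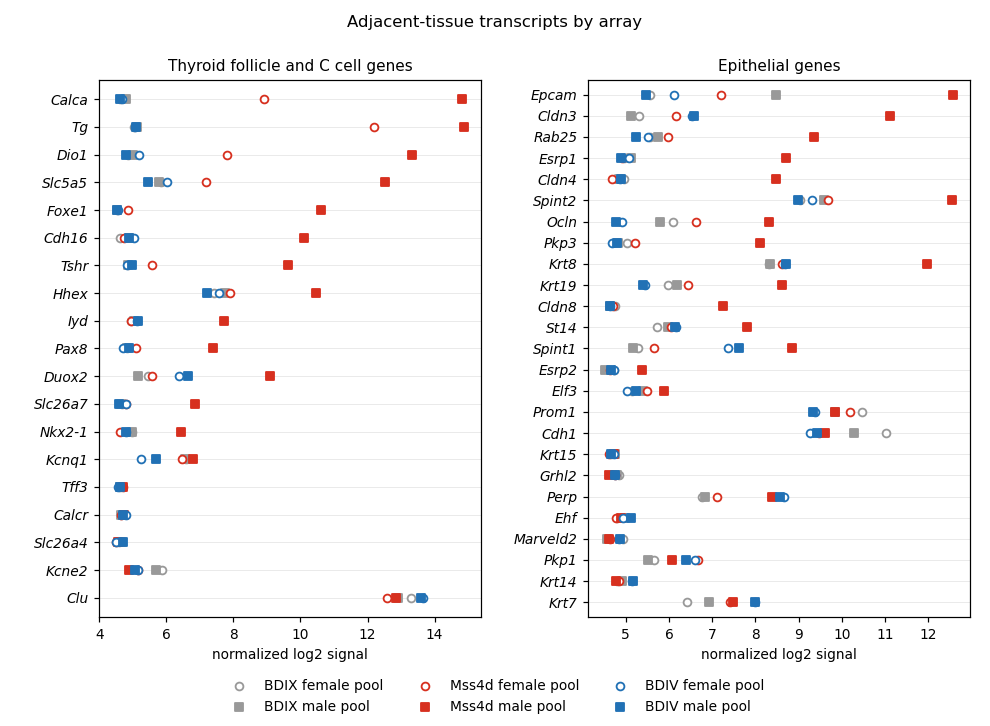
Normalized log2 signal (x axis) of each thyroid and epithelial list gene with a probe (y axis) on the female (open circle) and male (filled square) arrays of Mss4d (red), BDIV (blue) and BDIX (grey). The Mss4d male array lies more than 2-fold to the right of BDIV for 14 thyroid genes, Tg at 14.87, and the female array for 5 of them, Tg, Calca, Dio1, Slc5a5 and Kcnq1.

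Epithelial genes followed the same array. Epcam, an adhesion protein of epithelia, was at 7.20 and 12.57 in Mss4d against 6.11 and 5.48 in BDIV and did not pass (limma adjusted p = 0.0593). Of 25 list genes with a probe 13 were more than 2-fold higher in the male pair and 2 in the female pair, and the summed signal was 4411 and 24040 in Mss4d against 3915 and 3815 in BDIV. Of 15 tested members 3 rose, the tight junction gene Ocln (6.64 and 8.31 against 4.92 and 4.77), Prom1 and Elf3, and 0 fell. That count was 9 without the Mss4d female array and 0 without the Mss4d male or either BDIV array, 6 with median scaling or with the 4 arrays alone, and 1 without the sex term or with detection on all 4 arrays at p under 0.01. Of 9 tested genes of the adipocyte list 6 rose and 0 fell, Agpat2 (7.44 and 7.77 against 6.39 and 6.44) and the lipase gene Pnpla2 (10.39 and 10.71 against 9.36 and 9.62) among them. This count was 3 without the Mss4d female array, 1 without the Mss4d male array, 0 without either BDIV array and 3 without the sex term. Pparg did not rise (5.67 and 5.92 against 5.74 and 6.05), and Adipoq, Lep and Ucp1 were not detected on any array. The nasal and salivary list had 1 of 5 tested members higher and 1 lower, the muscle list 0 higher and 1 of 6 lower (Acta1), and neither of the 2 tested pituitary genes passed. Of mast cell genes 6 of 11 with a probe were more than 2-fold higher in the male pair and 0 in the female pair, while 1 of 5 tested rose (the histamine enzyme gene Hdc) and 1 fell (Kit, -1.50 ± 0.19). The rise of Hdc was lost when any 1 array but the BDIX male was left out, and 3 other rises appeared without the Mss4d female array. Of 9 tested genes of parathyroid and other neuroendocrine cells, a list kept apart from the nerve lists, 7 fell and 1 rose. The falls named below were of genes detected on both arrays of every strain, unlike the parathyroid genes Pth and Gcm2. The parathyroid hormone gene Pth was not among those tested. It was detected on the Mss4d male array alone, at 5.75 against 4.86 in the BDIV male pool. Gcm2, also of this list, was not detected on any array. Secretogranin II (Scg2) was at 7.87 and 6.91 against 9.81 and 9.81, somatostatin (Sst) at 7.55 and 8.24 against 10.15 and 9.82, and the granin genes Chga (-1.27 ± 0.17), Chgb (-1.50 ± 0.22) and Scg3 (-1.13 ± 0.21) fell too. Here 4 fell without the Mss4d male or the BDIV female array and 2 without the BDIV male array. The 1 rise was Casr, the calcium receptor of parathyroid and C cells (0.74 ± 0.22), named after its value was seen, and its call was lost without any 1 of the Mss4d or BDIV arrays, without background correction, with no filter and with a trended variance.

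Sensory neuron genes were lower in Mss4d nerve. Thy1, a surface protein of neurons, was at 10.72 and 10.08 in Mss4d against 12.72 and 12.50 in BDIV (-2.21 ± 0.30, limma adjusted p = 0.00342). Stmn2, a regulator of axonal microtubules, was at 12.97 and 12.15 against 14.41 and 14.38 (-1.84 ± 0.26). The substance P gene Tac1 was at 12.64 and 11.85 against 13.85 and 13.95 (-1.65 ± 0.28). In each the BDIV pools lay close together and well above both Mss4d pools, of which the male was the lower. Both Mss4d arrays lay below both BDIV arrays for 39.8% of all probes. BDIX was below BDIV as well, with Thy1 at 10.97 and 10.73, Stmn2 at 13.54 and 13.23, and Tac1 at 12.71 and 12.83. Of 24 tested members 15 fell, including the neuronal splicing factor gene Rbfox3 (-1.43 ± 0.24), and 1 rose, Calca, which the thyroid list also holds. The median was -1.24. The calls of Tac1 without either BDIV array and of Stmn2 without the BDIV male array were lost. The count of falls was 4 without the Mss4d male array, 2 without the BDIV female and 1 without the BDIV male array. In the female pair alone 11 members were more than 2-fold lower, in the male pair 18, and in both pairs 11 (background 8.01%). Within Mss4d the male pool was below the female pool for 23 of the 24, with a median of -0.66, and the male pool also held the thyroid and epithelial transcripts given above, whose part in this result was not tested. In whole nerve, fewer neurons and less RNA per neuron cannot be told apart.

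Not every neuronal gene was lower. The neurofilament gene Nefl was at 14.84 and 14.52 in Mss4d against 14.60 and 14.60 in BDIV (0.08 ± 0.20), and the neuropeptide gene Npy at 8.09 and 7.64 against 7.75 and 6.70. These were picked after their values were seen, as the members furthest above 0 besides Calca. The other 6 members that did not pass were all lower in Mss4d, down to -0.84 for the intermediate filament gene Ina.

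Ion channel genes of neurons were lower as well. Kcnab1, a potassium channel subunit, was at 6.45 and 6.09 in Mss4d against 8.89 and 8.84 in BDIV (-2.59 ± 0.34). The sodium channel genes Scn1a (8.95 and 8.27 against 10.28 and 10.27) and Scn11a (10.23 and 9.50 against 11.60 and 11.32), and the calcium channel genes Cacnb4 (-1.46 ± 0.27) and Cacna1b (at least 1.667-fold lower), also fell. Of 17 tested ion channel genes 10 fell and 0 rose, with a median of -0.89, and for all 17 the male Mss4d pool lay below the female one. The count was 2 without the Mss4d male or the BDIV female array and 1 without the BDIV male array.

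Axonal transport motors were divided. Of 17 tested genes 5 fell, led by the dynein gene Dync1li1 (7.21 and 6.77 against 8.54 and 8.75) and the kinesin genes Kif1b (-1.28 ± 0.24) and Kif5b (-1.29 ± 0.29). The kinesin gene Kif3c rose (11.46 and 11.28 against 10.30 and 10.35), 1 of 2 rises. Without single arrays between 1 and 8 fell, 8 without either BDIX array, 3 without the BDIV female, and 1 without the BDIV male or Mss4d male array. The rises numbered 0 without any 1 of the BDIV or Mss4d arrays.

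**Figure D2:**
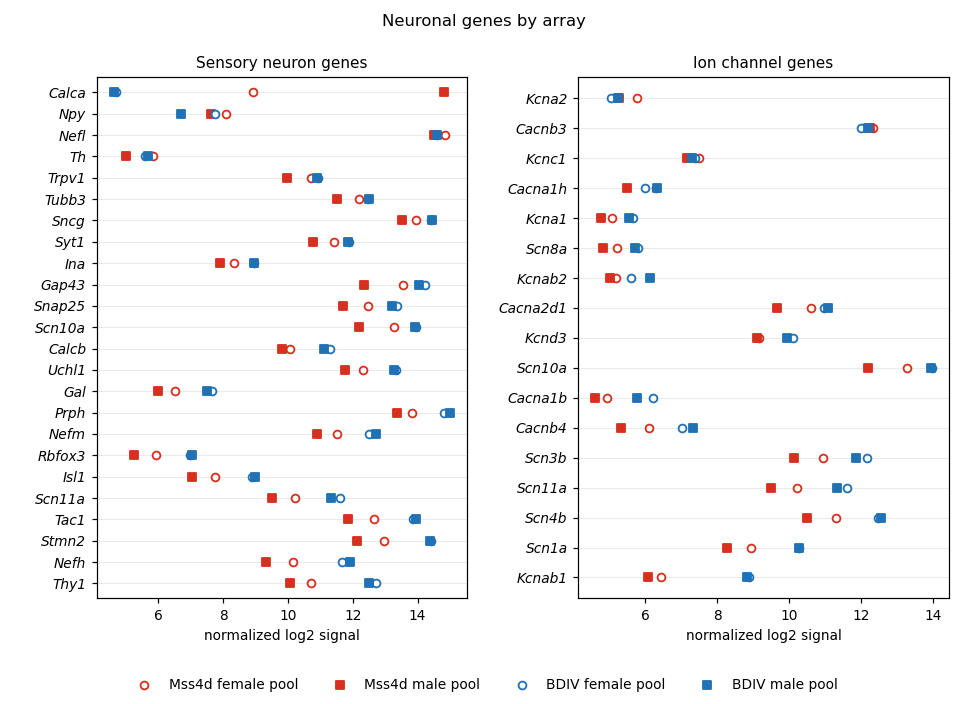
Normalized log2 signal (x axis) of the tested sensory neuron and ion channel genes (y axis), ordered by difference, on the 2 Mss4d arrays (red) and the 2 BDIV arrays (blue), open circles for female and filled squares for male pools. For 15 of 24 sensory neuron and 10 of 17 ion channel genes the red points lie far enough to the left to pass, and the Mss4d male square is the leftmost of most rows.

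The neuregulin ligand and its receptors moved in opposite directions. Nrg1, the axonal ligand, was at 7.17 and 5.64 in Mss4d against 9.33 and 9.27 in BDIV (-2.89 ± 0.41, limma adjusted p = 0.00392). Erbb2, the signalling receptor on Schwann cells, was at 7.02 and 7.23 against 5.50 and 5.63 (1.56 ± 0.18, limma adjusted p = 0.00252). Its partner Erbb3 was at 8.50 and 8.45 against 7.79 and 7.43 (0.87 ± 0.21). The arrays of the strains did not overlap in any of the 3 genes, as was the rule over all probes (40.0% above, 39.8% below). The calls for Nrg1 and Erbb2 held when any 1 of the 8 arrays was left out. That for Erbb3 was lost without the Mss4d male or either BDIV array. Of 20 tested genes of ErbB and Ras signalling and tumour suppressors 3 rose and 3 fell (15% each), shares near the background of 17.8% and 16.3%. The third rise was the kinase gene Braf (9.33 and 9.35 against 8.30 and 8.21). The other falls were the tumour suppressor gene Lzts1 (-1.44 ± 0.23) and the Ras inhibitor gene Spred1 (-0.99 ± 0.19). The falls numbered 1 without either BDIV array, 6 without either BDIX array and 7 with the 4 arrays alone, and the rises 1 without either BDIV array or the Mss4d male array.

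Myelinating Schwann cell genes were higher in Mss4d. Cnp, an enzyme of the myelin sheath, was at 14.19 and 14.14 in Mss4d against 12.50 and 12.51 in BDIV (1.66 ± 0.19). Gldn, which assembles the node of Ranvier, was at 12.52 and 12.20 against 10.25 and 10.55 (1.96 ± 0.25). Sox10, the transcription factor that specifies Schwann cells, was at 12.37 and 12.05 against 10.87 and 10.83 (1.36 ± 0.18). These 3 differences exceeded the spread within either strain and passed whichever array was left out. Of 15 tested members 7 rose and 0 fell, with a median of 0.62, Cldn19 (1.21 ± 0.22) and the myelin protein gene Pmp22 (15.41 and 15.36 against 14.66 and 14.78) among them. The count was 4 without the Mss4d female and 3 without the BDIV female array. Pmp22 lost its call without any 1 of the Mss4d, Mss4a or BDIV arrays, and Cldn19 without the BDIV female array. Mbp, the myelin basic protein, went the other way without passing (11.72 and 11.30 against 12.11 and 12.07). The galactolipid enzyme gene Ugt8 was at 12.47 and 12.63 against 12.37 and 12.58. Mbp and Ugt8 were named after their values were seen. All 15 genes were detected on all 4 arrays, as the tissue label has it.

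Genes of immature and non-myelinating Schwann cells went both ways, 4 higher and 4 lower of 17. The intermediate filament gene Nes was at 12.12 and 12.31 against 10.14 and 10.30 (limma adjusted p = 0.00191), and Pou3f1, which acts before the onset of myelination, at 6.65 and 6.21 against 5.27 and 5.34. Scn7a, a sodium channel of non-myelinating Schwann cells, fell (10.94 and 10.18 against 11.66 and 11.58), as did Shh, which was at background on both Mss4d arrays (at least 1.559-fold lower). The rises numbered 2 without either Mss4d array and 1 without either BDIV array. The falls numbered 0 without the Mss4d male or either BDIV array and 2 with the authors' values or no filter. Of 13 genes of central glia, which enter with the nerve root, 0 rose and 2 fell (Hapln2 and Slc1a3). That count was 0 without any 1 of these 4 arrays, 1 with the authors' values, no filter, the wider filter or no sex term, 4 without either BDIX array and 8 with the 4 arrays alone. Their level also differed between the BDIV pools, by a median of -1.11 male minus female.

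Laminins and their receptors bind Schwann cells to the basal lamina. A list of integrin, laminin and basement membrane collagen genes rose in most members measured. Lamb2, a laminin chain, was at 12.40 and 12.70 in Mss4d against 10.87 and 10.90 in BDIV (1.66 ± 0.20). Itga5, the fibronectin receptor chain, was at 7.21 and 8.24 against 5.17 and 5.50 (2.39 ± 0.32). Itga7, a laminin receptor chain, was at 12.02 and 11.74 against 10.44 and 10.61 (1.36 ± 0.21). Itgb5 (1.54 ± 0.22) and the basement membrane collagen gene Col4a1 (1.37 ± 0.20) rose likewise. Of 10 tested members 7 rose and 0 fell, with a median of 1.11, and 2 rose without the BDIV female array. The exception in direction was Itga1, picked after its values were seen, at 6.16 and 8.84 against 8.13 and 8.22.

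**Figure D3:**
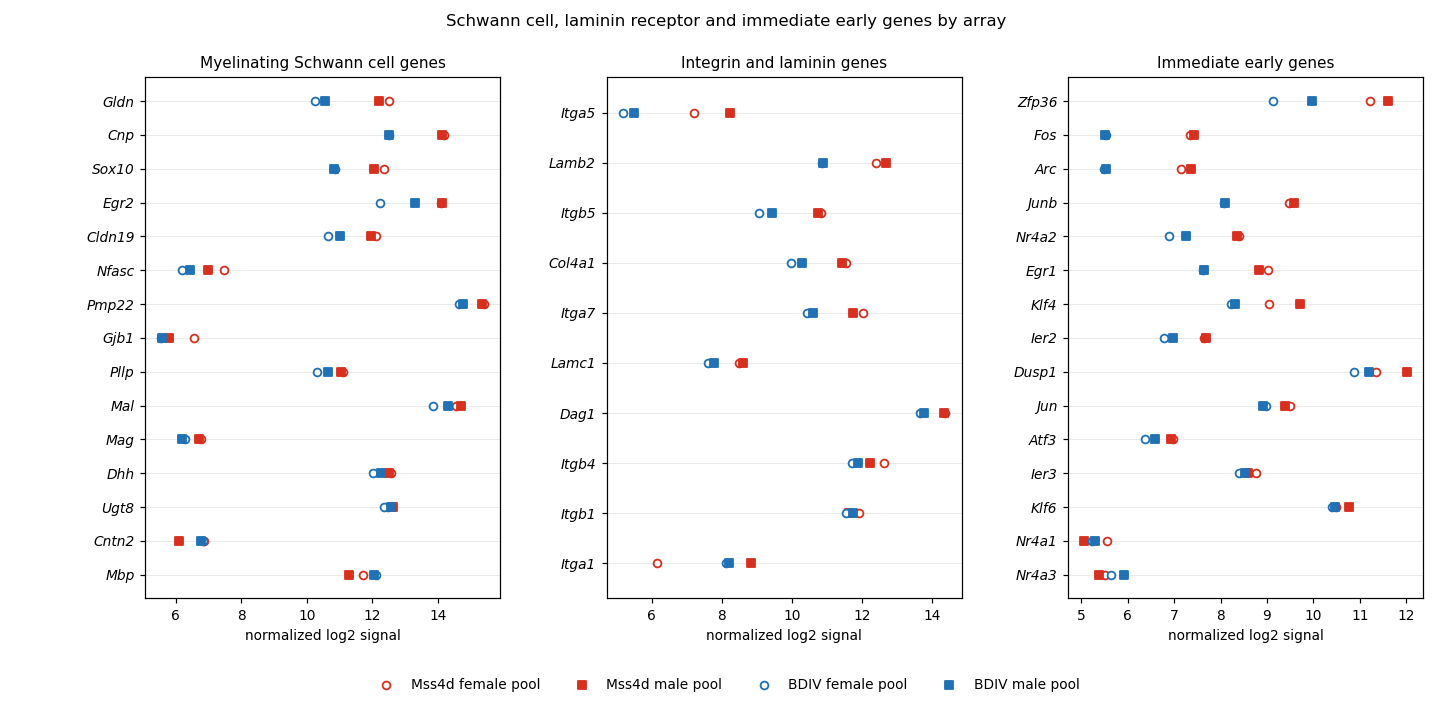
Normalized log2 signal (x axis) of tested myelinating Schwann cell, integrin and laminin, and immediate early genes (y axis), ordered by difference, on the Mss4d (red) and BDIV (blue) arrays, open circles for female and filled squares for male pools. In the upper rows both red points lie to the right of both blue points, as for 40.0% of all probes. Of the genes shown, 7 of 15, 7 of 10 and 8 of 15 passed.

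Matrix genes of fibroblasts and perineurium were higher for 9 of 21 tested members and lower for 2, with a median of 0.61. Sparc, a matrix binding protein, was at 14.69 and 14.86 against 12.65 and 12.97 (1.96 ± 0.20), and the collagen gene Col5a1 at 11.90 and 11.83 against 10.21 and 10.39 (1.56 ± 0.18). The proteoglycan gene Fmod (1.52 ± 0.23) and the microfibril gene Mfap5 (1.30 ± 0.20) rose. Cldn1, the tight junction gene of perineurium, fell (6.61 and 6.26 against 8.03 and 7.58), so the list did not move as one. The rises numbered 5 without either Mss4d array, 3 without the BDIV female and 2 without the BDIV male array, and the falls 1 without the Mss4d male array, without either BDIV array or with median scaling. Of 10 cartilage and proteoglycan genes 4 rose and 0 fell, with the cartilage collagen gene Col2a1 at 8.91 and 9.15 against 6.90 and 7.54, and 1 rose without the BDIV male array.

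Vessel and blood genes were higher in Mss4d. The endothelial receptor gene Tie1 was at 9.0 and 9.64 against 6.64 and 6.88 (2.56 ± 0.22, other probe 1.32 ± 0.22), and the clotting factor gene Vwf at 11.69 and 11.44 against 9.48 and 9.52 (2.07 ± 0.18). Of 12 tested endothelial genes 6 rose and 0 fell, with a median of 0.85, against 2 without the Mss4d male or either BDIV array. Of 6 pericyte and smooth muscle genes 4 rose, Des (7.76 and 8.72 against 6.63 and 6.68) and Kcnj8 (1.07 ± 0.19) among them, and Rgs5 fell to background on both Mss4d arrays (at least 1.469-fold lower). Here 1 rose without the Mss4d male array, 2 without the BDIV female and 0 without the BDIV male array. Red cell genes were higher too. Hba-a3 was at 11.89 and 11.07 against 6.85 and 7.53 (4.29 ± 0.38), Hbb at 15.22 and 14.93 against 12.58 and 13.12 (2.23 ± 0.27), and Lgals5, a galectin of rat red cells, at 9.47 and 9.11 against 6.29 and 6.76 (2.77 ± 0.35). Of 11 red cell genes 8 rose and 0 fell, with a median of 1.86. The count was 5 without the BDIV female and 4 without the BDIV male array. Globin probes can read their relatives, so the members of that family are uncertain one by one.

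Granulocyte genes were also higher, and how many passed depended on arrays outside the comparison. Alox15, a lipoxygenase, was at 7.93 and 8.01 in Mss4d and at background in BDIV (4.78 and 4.79), at least 6.893-fold higher. The defensin gene Defa5 was at 9.74 and 9.87 against 5.23 and 5.38 (4.50 ± 1.04), and haptoglobin (Hp) at 7.03 and 7.50 against 5.31 and 5.24. Of 15 tested members 4 rose and 0 fell, with a median of 1.88, and 9 were more than 2-fold higher in both pairs (background 5.64%). With either or both Mss4a arrays left out, or with median scaling, 10 rose, and 14 with the 4 arrays alone, but 2 without background correction or the Mss4d female array, 1 without the BDIV male array and 0 of those detected on all 4 arrays. Macrophage and class II genes showed 2 of 15 higher and 1 lower. Laptm5, a lysosomal protein of blood cells, was at 11.69 and 11.45 against 9.16 and 9.71, and the class II gene RT1-Da rose by 1.28 ± 0.33. The mannose receptor gene Mrc1 fell (6.65 and 6.94 against 8.13 and 8.13). The rises numbered 1 without any 1 of the 4 arrays or with the authors' values or no filter, and 4 without either BDIX array or with the 4 arrays alone. The falls numbered 0 without either BDIV array and 3 without either BDIX array.

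Class I and interferon genes showed few differences, and these went both ways. RT1-CE16, a class I gene, was at 8.05 and 8.08 in BDIV and at background in Mss4d (4.87 and 4.94), at least 6.965-fold lower. Its relative RT1-N3 rose (7.10 and 7.65 against 5.72 and 5.79). Ifi47, an interferon-induced GTPase, was at 7.62 and 7.98 in Mss4d and at background in BDIV (4.64 and 4.72), at least 6.134-fold higher, while the antiviral gene Mx2 fell (9.53 and 9.54 against 10.53 and 10.59). In each list 2 of 17 rose and 1 fell (11.8% and 5.88%), below the background shares. Tap1 in the class I list and Irgm in the interferon list were the rises not given above. Under the alternatives run, 0 to 3 rose and 0 to 5 fell in these lists, with 1 rise in the interferon and 0 in the class I list without either BDIV array, and 1 in each without the Mss4d male array. Sequence differences between the strains under a probe were not tested as a source of such on and off patterns.

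Immediate early genes, which are transcribed within minutes of a stimulus, were higher in Mss4d. Arc was at 7.15 and 7.37 against 5.49 and 5.53 (1.75 ± 0.21), Junb at 9.48 and 9.58 against 8.08 and 8.10 (1.44 ± 0.17), and Egr1 at 9.02 and 8.82 against 7.62 and 7.64 (1.29 ± 0.17). The receptor gene Nr4a2 was at 8.41 and 8.35 against 6.88 and 7.26, and Zfp36, which speeds mRNA decay, at 11.22 and 11.61 against 9.13 and 9.98. Within each strain the pools of Arc, Junb and Egr1 lay close together. Both Mss4d arrays lay above both BDIV arrays for these genes, as they did for 40.0% of all probes. Of 15 tested members 8 rose and 0 fell, with a median of 0.79. The count was 5 without the Mss4d male or the BDIV male array and 2 without the BDIV female array.

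The promoters of 6 of these 8 genes were found in the RefSeq table of GRCr8. The 250 bases before the start of the gene were searched on both strands for exact sequences. These were the cAMP response element TGACGTCA, a single form of the serum response element (a CArG box), the TATA box TATAAA and an E-box. Ier2, 1 of the 8, held the first (1.587% of 33469 promoters do), Egr1 the second (0.03%), and Junb and Klf4 the third (12.931%). The E-box (5.593%) was in 0 of the 6. Other forms of the CArG box were not searched, so 0.03% is the share of that form alone. Dusp1, a tested member that did not pass, also held the first. The first was thus in 2 of the 9 tested members with a promoter. The windows of Ier2 and Junb are shown because they are on the same strand of the same chromosome and hold different motifs. The capitals mark the motif. Ier2 lies at chr19:40399123-40399372 and Junb at chr19:40080876-40081125 of GRCr8, both on the plus strand.
Ier2: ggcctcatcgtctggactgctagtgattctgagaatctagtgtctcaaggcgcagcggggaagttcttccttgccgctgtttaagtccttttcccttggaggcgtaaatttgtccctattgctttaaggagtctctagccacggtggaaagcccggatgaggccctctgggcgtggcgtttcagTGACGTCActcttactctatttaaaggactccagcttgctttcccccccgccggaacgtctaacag
Junb: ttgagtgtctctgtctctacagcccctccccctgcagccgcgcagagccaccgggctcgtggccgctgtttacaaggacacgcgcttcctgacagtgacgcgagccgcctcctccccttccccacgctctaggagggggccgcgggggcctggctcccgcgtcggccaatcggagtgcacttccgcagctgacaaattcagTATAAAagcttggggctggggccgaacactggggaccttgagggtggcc
Counting the base before the start as -1, the motif of Ier2 begins at -66 and that of Junb at -49. Ier2 was at 7.64 and 7.69 in Mss4d against 6.77 and 6.97 in BDIV (0.79 ± 0.19), a smaller rise than that of Junb. A match is a description of these letters in the reference genome, and the sequence of neither strain was read.

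Clock and steroid response genes were higher in part. Nr1d1, the nuclear receptor that represses Bmal1, was at 9.91 and 10.21 against 7.61 and 7.88 (2.32 ± 0.22), Per1 at 11.90 and 12.23 against 10.20 and 10.98 (1.48 ± 0.30), and Bmal1 at 6.89 and 6.53 against 5.98 and 5.61 (0.92 ± 0.17). An activator and its repressor were thus both higher. Of 10 clock genes 4 rose and 0 fell, against 1 without the Mss4d male or the BDIV female array and 2 without the BDIV male array. Of 12 glucocorticoid response genes 4 rose, Per1 and the metallothionein gene Mt1 (13.67 and 13.97 against 12.31 and 12.44) among them, and 0 fell. That count was 2 without the Mss4d female array, with the authors' values or with no filter, 0 without the Mss4d male array and 1 without either BDIV array. The hour at which the nerves were taken is not given in the sources used here.

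DNA repair, detoxification and cell cycle genes leaned higher. Of 21 repair genes 8 rose and 1 fell, with a median of 0.21: the base excision genes Mutyh (7.35 and 7.51 against 5.97 and 6.38) and Xrcc1 (10.03 and 10.48 against 8.79 and 8.97) and the ligase genes Lig1 (0.98 ± 0.18) and Lig3 (0.92 ± 0.22) were among the rises. Mgmt, which repairs the alkylated guanine that ethylnitrosourea leaves, did not pass (6.83 and 6.96 against 7.30 and 7.02), and was named after its value was seen. The rises numbered 5 without the Mss4d female array, 2 without the Mss4d male or BDIV male array and 0 without the BDIV female array. Of 23 detoxification genes 6 rose and 1 fell, with Cyp1b1, a cytochrome that activates carcinogens, at 10.80 and 10.63 against 9.17 and 9.17, the glutathione transferase gene Gstm2 at 10.77 and 10.47 against 9.45 and 9.01, and the glutathione synthesis gene Gclc at 10.30 and 10.54 against 8.87 and 8.92. The glutathione reductase gene Gsr fell (9.06 and 8.78 against 9.67 and 9.54). Here 3 rose without the Mss4d male array or with the authors' values, 2 without either BDIV array and 10 with median scaling. Of 19 cell cycle genes 6 rose and 0 fell, among them the replication licensing genes Mcm3 (1.08 ± 0.20), Mcm6 (0.98 ± 0.22) and Mcm2 (0.85 ± 0.20). That count ran from 0 without either BDIV array, 1 without the Mss4d male and 2 without the Mss4d female array to 10 with median scaling and 13 with the 4 arrays alone.

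Genes of oxidative phosphorylation lay lower in Mss4d, while other metabolic and ribosomal genes went both ways. Both Mss4d arrays were below both BDIV arrays for 31 of 41 oxidative phosphorylation genes (background 39.8%) and above them for 6 (background 40.0%). Of the 41 genes 6 fell and 0 rose, with a median of -0.34, Ndufa7 of complex I (8.88 and 8.65 against 10.17 and 10.12) and Cox5a of complex IV (11.83 and 11.90 against 13.17 and 13.00) among them. That 14.6% is below the 16.3% of all genes that fell, and the count was 0 without the Mss4d male or either BDIV array, 3 with median scaling, and 11 without either BDIX array or with the 4 arrays alone. Of 17 cholesterol genes 1 rose (Nsdhl, 1.10 ± 0.22) and 2 fell (Scap and Fdps). The falls numbered 1 with median scaling, the authors' values or no filter or without the Mss4d female array, and 0 without the Mss4d male or either BDIV array, and 6 rose with median scaling. Of 15 fatty acid genes 3 rose, Cers2 for long-chain ceramides (13.29 and 13.11 against 11.80 and 12.12) among them, and Elovl5, an elongase, fell (6.84 and 5.90 against 9.24 and 9.07). Those rises numbered 5 with median scaling, 0 without the Mss4d male or BDIV female array and 1 without the BDIV male array. Of 46 ribosomal protein genes 6 fell and 1 rose, with a median of 0.06, and 3 fell without the Mss4d male or either BDIV array. Rpl30 was by far the lowest, at 7.06 and 7.13 in Mss4d against 12.27 and 12.31 in BDIV (-5.19 ± 0.30, limma adjusted p = 0.000512), and Rpl7 was next (-1.87 ± 0.24). Ribosomal protein genes have many copies of near-identical sequence, so a probe may read relatives.

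The caveola list was split within its complex. Cav1, the coat protein, was at 6.50 and 6.22 in Mss4d against 8.20 and 8.18 in BDIV (-1.83 ± 0.35, other probe -1.62 ± 0.27), and the coat gene Cavin1 at 5.29 and 4.73 against 7.34 and 7.33 (-2.32 ± 0.42). Cavin3 (13.50 and 13.51 against 12.38 and 12.52), Cavin2 (1.64 ± 0.35) and Ehd2 (0.92 ± 0.29) rose instead. The rises numbered 1 without the Mss4d male array and 0 without either BDIV array, and the falls 0 without the BDIV male array.

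**Figure D4:**
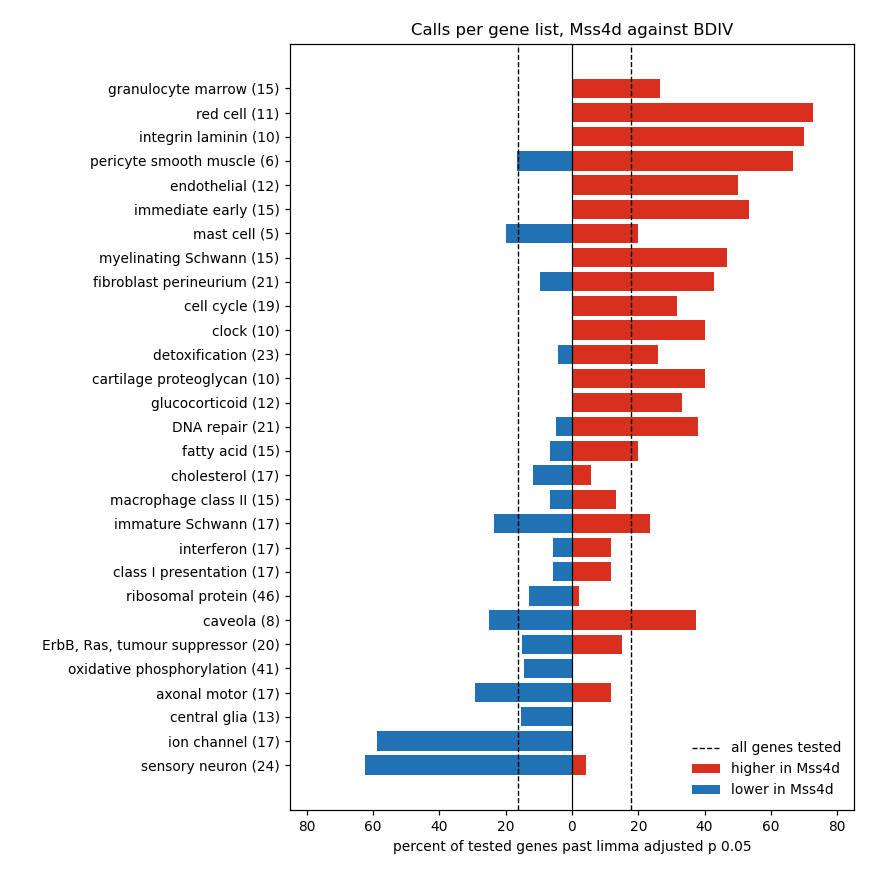
Percent of the tested genes of each list (y axis, number tested in brackets, ordered by median difference) past limma adjusted p 0.05, higher in Mss4d to the right in red and lower to the left in blue. The dashed lines mark all genes tested, 17.8% higher and 16.3% lower, and the sensory neuron and ion channel lists reach 62.5% and 58.8% lower.

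Among single genes outside the thyroid, epithelial and other adjacent tissue lists, the largest rise was Fam151b, at 9.05 and 8.88 in Mss4d and at background in BDIV (4.65 and 4.61), at least 13.73-fold higher (limma adjusted p = 0.000354). Hba-a3, Alox15 and Ifi47, given above, and S100a3, a calcium binding protein gene (10.98 and 10.80 against 7.60 and 8.09), were other large rises. Dmp1, a phosphoprotein of mineralised matrix, was at 8.10 and 8.15 against 5.49 and 4.92. A further 6 of the 12 largest rises were far brighter in the male Mss4d pool than in the female one. Sectm1b was at 6.30 and 11.58, the defensin gene Defb1 at 5.89 and 11.22, and Tmc4 at 6.33 and 10.80, each at background in BDIV. The phosphatase inhibitor gene Ppp1r1b was at 11.73 and 14.09 against 9.25 and 9.09, and its other probe did not pass (0.84 ± 0.29). The lipocalin gene Lcn2 was at 6.56 and 9.72 against 4.82 and 4.85, and the tetraspanin gene Tspan1 at 10.09 and 12.19 against 7.97 and 8.33. The calls of Sectm1b, Defb1 and Tmc4 were lost without any 1 of the BDIV and BDIX arrays, background correction or filter, those of Defb1, Tmc4, Lcn2 and Dmp1 without the Mss4d male array, those of Tspan1 and Dmp1 without either BDIV array, and those of Lcn2 and Ppp1r1b without the BDIV male array. The Mss4d male array is the one with the thyroid and epithelial transcripts, and their part in these 6 rises was not tested. Of all 2061 higher probes 61 (2.96%) were more than 2-fold brighter in the male Mss4d pool than in the female one, against 2.28% of all tested probes. Among the 7998 probes that did not pass there were 210 such probes (2.63%). A gap between the Mss4d pools also widens the spread of the fit, so such probes pass less easily. These shares therefore cannot show what the male pool added to the rises.

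The largest falls are given under the same limit to genes outside the adjacent tissue lists. After Rpl30 came Slc3a1, an amino acid transporter subunit (6.87 and 6.78 against 10.68 and 10.55, -3.79 ± 0.21), the synaptic vesicle gene Synpr (7.14 and 6.18 against 10.39 and 9.92), the calcium exchanger gene Slc24a2 (7.88 and 6.94 against 10.72 and 10.74) and the potassium channel partner Kcnip4 (5.91 and 5.23 against 8.92 and 8.55). Pafah1b1, which binds dynein, was at 6.71 and 7.37 against 10.15 and 10.20 (-3.13 ± 0.24), Tlcd3b at 6.46 and 6.16 against 9.11 and 9.36, and Trarg1 and Napb, which acts in vesicle fusion, were at background on both Mss4d arrays (at least 6.591-fold and 6.005-fold lower). Nrg1 and RT1-CE16, given above, completed the 12 with Plekhh1. Reg3a, of the nasal and salivary list, fell by 2.96, which is more than Nrg1 and Tlcd3b did. Only Ppp1r1b among these 24 genes had another tested probe. For the other genes, a strain difference in the probed sequence was not tested apart from expression. Sectm1b, Defb1 and Tmc4 were low in BDIX as in BDIV, at 4.76 and 5.20, 4.64 and 4.61, and 5.07 and 5.26 in BDIX. Their levels in the female and male pools of Mss4d, given above, were far apart.

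**Figure D5:**
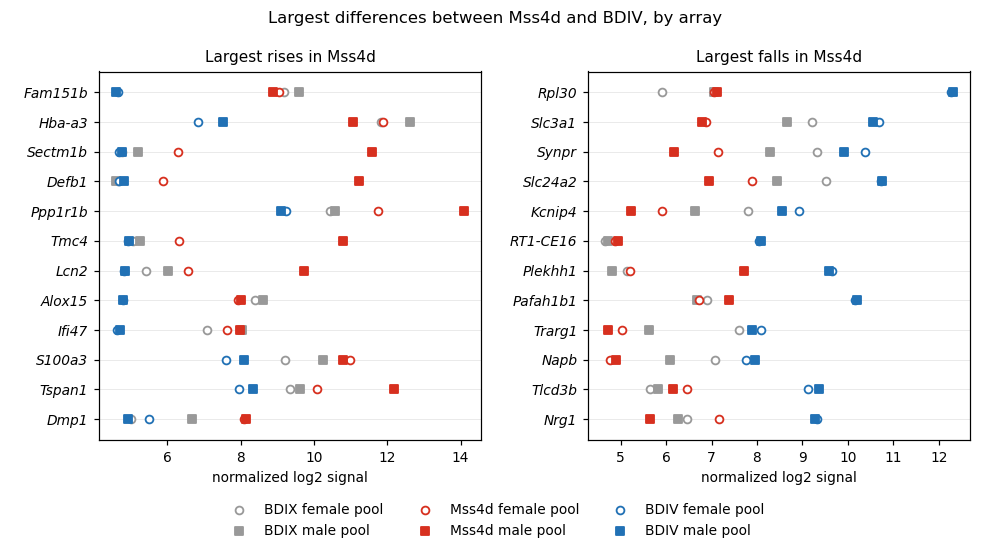
Normalized log2 signal (x axis) of the 12 largest rises and 12 largest falls (y axis) in Mss4d against BDIV among genes outside the adjacent tissue lists, on the arrays of Mss4d (red), BDIV (blue) and BDIX (grey), open circles for female and filled squares for male pools. Mss4d lies near BDIX and far from BDIV for Fam151b, Ifi47, RT1-CE16 and Tlcd3b, and the Mss4d pools are far apart for Sectm1b, Defb1, Tmc4 and Plekhh1.

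Genes that are on in only 1 of BDIV and BDIX were looked up in Mss4d, side by side, since all these comparisons share arrays. Of 13 probes detected on both BDIV arrays, on neither BDIX array and more than 4-fold apart, 9 were detected on neither Mss4d array, 3 on 1 and 1 on both. The neurotensin gene Nts, for example, was at 6.92 and 6.53 in BDIV, 5.0 and 4.70 in Mss4d, and 4.76 and 4.69 in BDIX. Of 16 probes with the opposite pattern 15 were detected on both Mss4d arrays and 1, the Rhesus factor gene Rhd, on 1. The list includes Fam151b, Alox15, Ifi47 and the erythroid genes Alas2 and Hemgn.

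Over the chromosomes of the GRCr8 assembly the share of genes that passed ran from 30.9% (chromosome 16) to 39.6% (chromosome X), against 34.1% of all 8565 placed genes, and was 31.6% of 367 genes on chromosome 6. On that chromosome Gpx2, a glutathione peroxidase gene, was near BDIV and far from BDIX: it was at 10.55 and 10.65 in Mss4d, 10.83 and 10.96 in BDIV, and 7.10 and 8.39 in BDIX (Mss4d minus BDIV -0.29 ± 0.31). Plekhh1, with 9 tested genes between them, was at 5.20 and 7.71 in Mss4d, 9.65 and 9.59 in BDIV, and 5.14 and 4.82 in BDIX, so that its female pool was at the BDIX level and its male pool between the strains (-3.16 ± 0.66, a call lost without either BDIV array or with the authors' values). Mss4a was at 9.74 and 9.38 for this gene, near BDIV. Of the 31 tested genes from 10 before the first to 10 beyond the second, 5 were higher and 6 lower in Mss4d. Rab15, next to Gpx2, was at 5.34 and 5.21 in Mss4d, 6.86 and 6.89 in BDIV, and 5.50 and 5.19 in BDIX, and the arginase gene Arg2, beyond Plekhh1, at 7.67 and 7.01, 9.25 and 9.36, and 7.17 and 7.22. Both fell (limma adjusted p = 0.00285 and 0.00614). This stretch was chosen after its values were seen, and the place of the segment relative to it was not tested.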

How the data were processed

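Per the labels' protocols, pooled trigeminal nerves gave total RNA, which was labelled with biotin and hybridised to RatRef-12 arrays. Per the series' design text, the authors used GenomeStudio 2010. In the deposited table without normalization the values are linear intensity per probe, with a deposited detection p-value beside each, in steps of 0.00121. The authors' value table holds linear intensity that is a straight line of the former per array (largest residual 0.0143). Their background and scaling options are not given in the sources used here, and array number limits the precision.

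In R 4.3.3 with limma 3.58.1, neqc (offset 16, background inferred from the detection p-values) gave quantile normalized log2 values. Each probe was fitted over all 8 arrays with strain and sex as terms (3 residual and 4.1 prior degrees of freedom). Of all probes 13793 had 1 gene symbol, 0 several and 8730 none, and 13757 matched RefSeq. List genes were represented by their brightest probe. Where a strain was at background on both arrays, the fold is a lower bound against the lowest detected signal. The fit was tested on simulated data.

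Named genes were the 12 largest rises and falls with the same direction in both pairs, up to 5 passing members per list by p, all thyroid genes with a probe (those not tested by their levels only), and the 5 genes whose pairs differed most. Members and lists were chosen with earlier results of these data known. Alternatives were other background, scaling, filter and variance settings, the authors' values, the 4 arrays alone, no sex term and each array left out. Leaving out both BDIX or both Mss4a arrays was chosen after seeing the data.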

Additional observations from a re-analysis of the deposited data

Results flagged for a closer look

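In 2 named genes the female and the male pair went opposite ways, a difference that was not tested, since each strain had 1 array per sex. Duox2 was lower in Mss4d in the female pair (-0.78) and higher in the male pair (2.43). Thrsp, a regulator of fat synthesis, was at -0.11 in the female pair and 5.88 in the male pair, with 7.26 and 11.96 in Mss4d against 7.36 and 6.07 in BDIV.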

How the results depend on the processing

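Of 166 named and tested genes 161 passed, and 47 of them passed with every single array left out. The count of 4122 passing probes ranged from 654 to 4625 with single arrays left out, that of higher probes from 298 to 2274 and that of lower probes from 312 to 2356. Where 1 array of a strain remained, its spread was taken from the other strains. Probes more than 2-fold apart the same way in both pairs numbered 684 higher and 971 lower, against 315 and 502 without background correction and 1049 higher with arrays scaled to their medians. Without the sex term, the replicate block of this fit, 4302 probes passed, and 10 named genes lost their call. With the 4 arrays alone 5686 passed, with 1 residual degree of freedom. The Duox2 difference, which did not pass (0.82), ranged from -1.07 without the Mss4d male array to 2.69 without the Mss4d female array. No other named and tested gene changed direction under the alternatives run. Dim probes set the limit: a fold against a strain at background is only a bound.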
